A study of Mus musculus with 6 samples.

Results

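AP-1 is a family of dimeric transcription factors, and the 8 genes described here encode its FOS subunits (Fos, Fosb, Fosl1 and Fosl2), its JUN subunits (Jun, Junb and Jund) and the related factor ATF3. They were taken by name from the expression table, which lists 25166 genes, and all 8 were found. Of these, 7 had a mean value of at least 5 over the libraries and were tested, whereas Fosl1 lay below this limit. RNA was sequenced from muscle stem cells (MuSCs), the resident stem cells of skeletal muscle, sorted from C57BL/6 mice without culture. By the study's methods, limb and trunk muscle was digested enzymatically and red cells were lysed before sorting. Cells bearing Sca1 or the blood and vessel markers CD45 and CD31 were then removed on magnetic beads. MuSCs were sorted by Integrin-a7 and CD34 or by a fluorescent reporter, and the methods do not say which sort gave these libraries. The study's reporting summary names a YFP reporter in the cross for Sirt6mKO mice. There were 3 libraries labelled Sirt6mKO and 3 labelled Ctrl, each made from total RNA of 100 to 200 cells. In Sirt6mKO mice a constitutive Cre recombinase driven by Pax7 removes exons 4 to 6 of Sirt6, which encodes an NAD-dependent histone deacetylase; every cell with a history of Pax7 expression is targeted. The labels call the Ctrl animals wild type, while the legend of the study's supplementary figure describes them as floxed for Sirt6 without Cre and gives 12-week-old males, so the presence of Cre and the loss of Sirt6 cannot be told apart. Nothing in the sources used here says how many animals stand behind each library, and p-values below measure the spread between these libraries.

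FOS proteins bind DNA only when paired with another basic leucine zipper protein, usually a JUN protein, whereas JUN proteins also pair with themselves and with ATF3. Fos, Fosb, Jun, Junb and Atf3 are immediate early genes, transcribed within minutes of a stimulus through serum response factor, CREB and ATF proteins already present in the cell, and their RNAs are short-lived. In MuSCs these RNAs are known to appear during enzymatic dissociation and sorting as well as on activation in injured muscle. A link to SIRT6 exists from other work, in which the protein was found at JUN target genes, and the study itself deals with an AP-1 site downstream of the utrophin promoter.

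The promoters of the 3 members that passed the test below are shown as the stretch in which promoter elements of immediate early genes are usually sought. Each line gives the 120 bases before the RefSeq transcription start (GRCm38.p6), 5′ to 3′ on the strand of the gene, with matches to TGACG and TGACATCA in capitals.
Fos: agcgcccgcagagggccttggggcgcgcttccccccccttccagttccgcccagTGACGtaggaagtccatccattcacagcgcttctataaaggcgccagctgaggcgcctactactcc
Jun: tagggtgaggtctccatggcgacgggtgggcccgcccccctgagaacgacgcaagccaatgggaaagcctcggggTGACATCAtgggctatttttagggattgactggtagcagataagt
Junb: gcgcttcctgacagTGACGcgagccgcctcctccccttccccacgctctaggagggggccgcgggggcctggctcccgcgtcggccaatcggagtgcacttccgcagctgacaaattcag
The stretches lie at chr12:85473770-85473889 on the plus strand for Fos, at chr4:95052223-95052342 on the minus strand for Jun and at chr8:84978749-84978868 on the minus strand for Junb. In Fos, TGACG, the first letters of the cAMP response element, began 66 bases before the start, and a second copy outside the printed stretch began 129 bases before it. In Jun, TGACATCA, an 8-letter variant of the AP-1 motif, began 45 bases before the start. In Junb, TGACG began 106 bases before the start. TGACG was also present in 2 members that did not pass the test, Fosb at 60 bases and, on the other strand, Atf3 at 7 bases before the start. Within 250 bases before the start and on either strand, TGACG was present in 17.8% of all 32851 promoters of the same length in the table and TGACATCA in 2.93%. Both words were picked after the letters had been read, so that their presence is a description only. The AP-1 heptamer TGANTCA (6.75% of promoters), the palindromic element TGACGTCA (1.55%) and the CArG box, which serum response factor binds (1.47%), had no match in the 250-base windows of the 7 members with an entry. For Jund, Atf3 and Fosl2 the RefSeq start was not the 5′ end of the gene as listed in the expression table. It lay at 70697739 for Jund (5′ end 70698949), at 191183333 for Atf3 (191218039) and at 32136472 for Fosl2 (32135801). Their windows describe these RefSeq starts only. CCAAT, which does not overlap the other matches, was found in Jun and Junb and in 33.9% of promoters. No entry was found for Fosl1.

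The values, called signal here, are reads per gene scaled by a size factor for each library, and summed to between 2272307 and 2369973 per library. The size factors spread from 0.558 to 1.372, equivalent to 1267027 to 3209964 reads on genes, so that 1 read is worth between 0.729 and 1.79 signal units. Fold changes are differences of group means of log2(signal + 1), Sirt6mKO minus Ctrl, from limma with Benjamini-Hochberg adjustment over 14227 genes. The targeted gene Sirt6 was listed at 19, 20 and 13 in Sirt6mKO libraries 1 to 3 and at 18, 17 and 20 in Ctrl libraries 1 to 3 (log2 fold change -0.10 ± 0.29 SE, adjusted p = 0.91). A value for the whole gene does not separate exons 4 to 6 from the others, so Sirt6 gave no check of the labels, on which every direction below rests.

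AP-1 RNA was abundant in freshly sorted MuSCs of both groups, and 3 members rose in Sirt6mKO: Fos, Jun and Junb, by 1.68-, 1.74- and 1.81-fold. Against this count of 3 of 7 tested members, 2.64% of all tested genes rose at an adjusted p of at most 0.05 and 1.88% fell. No member fell, and none reached the 2-fold change that the study's methods ask for in addition, which 2.59% of genes passed in either direction. With limma on the log values, 6 of 7 members had an unadjusted p under 0.05, as had 18.1% of all tested genes, and limma voom on the reads likewise put 0 members past both limits. The groups did not overlap for 4 of 7 tested members, each higher in Sirt6mKO, compared with 11.1% of tested genes. The median log2 fold change was 0.66 over the 7 members and 0.0019 over all tested genes. Since the cells were lysed in bulk, more cells with AP-1 RNA and more AP-1 RNA per cell cannot be told apart.

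**Figure D1:**
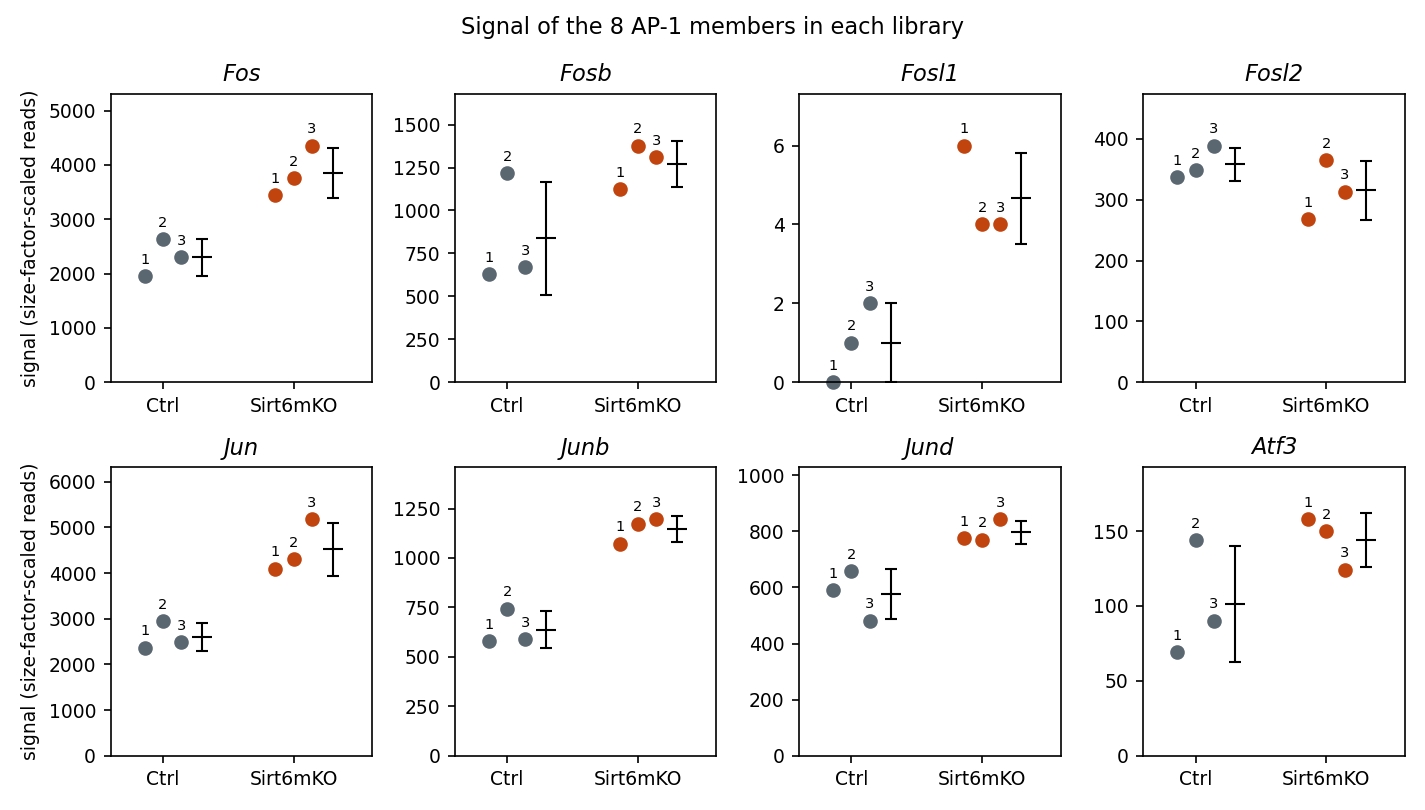
Signal (size-factor-scaled reads, linear axis from 0) of each of the 8 AP-1 genes in every library. Points carry the replicate number, and the bar beside each group is the mean with its SD (n = 3). The groups are apart for Fos, Jun, Junb, Jund and, at a few reads, Fosl1, whereas Ctrl 2 reaches the Sirt6mKO range for Fosb and Atf3, and Fosl2 overlaps.

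Fos, which pairs with JUN proteins in stimulated cells, was listed at 3442, 3757 and 4355 in the Sirt6mKO libraries and at 1951, 2632 and 2302 in the Ctrl libraries. The lowest Sirt6mKO library thus stood above the highest Ctrl library. The log2 fold change was 0.75 ± 0.14 (SE, n = 3 and 3; 95% interval 0.45 to 1.05; limma adjusted p = 0.0081). Fos (ENSMUSG00000021250, chr12:85473890-85477273, plus strand) ranked at position 41 of 25166 genes by mean signal. With 1285 to 5038 reads per library, counting error is small against the differences between libraries.

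Fosb, whose truncated product accumulates after repeated stimulation, stood at 1124, 1378 and 1311 in Sirt6mKO and at 628, 1218 and 669 in Ctrl. Ctrl 2 lay between the Sirt6mKO libraries, while the other two Ctrl libraries lay well below them. The log2 fold change of 0.66 ± 0.20 (SE) did not pass the test (limma adjusted p = 0.096). Without Ctrl 2 it was 0.97 with an adjusted p of 0.0034. The residual SD of Fosb was 0.39 on the log2 scale, that of Fos was 0.20, and the median over genes at or above 50 signal units was 0.17. Fosb (ENSMUSG00000003545) lies at chr7:19302696-19310051 on the minus strand.

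Fosl2 encodes FRA-2, a FOS protein without a strong transactivation domain that persists in unstimulated cells. It was listed at 268, 365 and 313 in Sirt6mKO and at 337, 348 and 389 in Ctrl, with overlapping ranges. Its log2 fold change was -0.19 ± 0.13 (SE; 95% interval -0.48 to 0.09; limma adjusted p = 0.50). The interval leaves out the fold changes of Fos, Jun and Junb. Fosl2 (ENSMUSG00000029135) is located at chr5:32135801-32157842 on the plus strand.

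Fosl1, which encodes FRA-1 and is itself induced by AP-1 in growing cells, was close to the detection limit. The Sirt6mKO libraries held 7, 5 and 4 reads and the Ctrl libraries 0, 1 and 1. Summed over the libraries and corrected for the size factors, the 16 reads of Sirt6mKO against 2 reads of Ctrl gave a ratio of 6.09 with an exact 95% interval of 1.43 to 54.6, which covers counting error only. On the annotation, 2767 bases of Fosl1 (ENSMUSG00000024912, chr19:5447547-5455946, plus strand) overlap Ccdc85b on the other strand, which was listed at 62, 55 and 50 in Sirt6mKO and at 42, 51 and 39 in Ctrl. Whether reads were assigned by strand is not given in the sources used here, so reads of these genes could not be separated.

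Jun, the main partner of FOS proteins and the target of the JNK kinases, showed the highest signal of the family. It was listed at 4090, 4300 and 5182 in Sirt6mKO and at 2358, 2943 and 2481 in Ctrl. No Ctrl library reached a Sirt6mKO library, and the log2 fold change was 0.80 ± 0.13 (SE; 95% interval 0.52 to 1.09; limma adjusted p = 0.0047). Jun (ENSMUSG00000052684, chr4:95049034-95052222, minus strand) is a gene without introns, and 689 bases of it overlap the antisense RNA Junos. Junos itself was listed at 37, 36 and 49 in Sirt6mKO and at 17, 19 and 32 in Ctrl (log2 fold change 0.86 ± 0.28, adjusted p = 0.11), far below the signal of Jun in every library.

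Junb encodes a JUN protein that competes with JUN for partners and limits proliferation in several cell types. It stood at 1071, 1172 and 1197 in Sirt6mKO and at 578, 744 and 590 in Ctrl. The gap between the groups was wider than the range within either one, and the log2 fold change of 0.85 ± 0.12 (SE; 95% interval 0.59 to 1.12) had the lowest adjusted p of the family (limma, 0.0018). Junb (ENSMUSG00000052837) spans chr8:84976910-84978718 on the minus strand.

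Jund, which unlike the other two JUN genes is transcribed steadily in resting cells, was listed at 776, 771 and 844 in Sirt6mKO and at 590, 658 and 482 in Ctrl. The groups did not overlap, yet the log2 fold change of 0.48 ± 0.12 (SE; 95% interval 0.21 to 0.75) lay just outside the threshold (limma adjusted p = 0.0505). In 6 of 17 alternative fits it lay inside, among them equal library totals and limma voom. Over the alternatives the adjusted p ranged from 0.036 to 0.17. Of the 1668 bases of Jund (ENSMUSG00000071076, chr8:70698949-70700616, plus strand), 919 overlap the antisense gene Gm11175, which was listed at 11 to 27 in the 6 libraries.

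Atf3, a stress-induced factor that represses as a homodimer and activates as a partner of JUN, was the least abundant of the immediate early members. It stood at 158, 150 and 124 in Sirt6mKO and at 69, 144 and 90 in Ctrl. As with Fosb, Ctrl 2 fell inside the Sirt6mKO range and the other two Ctrl libraries below it. The log2 fold change was 0.57 ± 0.23 (SE), with an adjusted p of 0.20 in limma and of 0.032 without Ctrl 2. Atf3 (ENSMUSG00000026628) lies at chr1:191170296-191218039 on the minus strand.

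The libraries of a group ranked alike for several members. Ctrl 2 had the highest Ctrl signal for 6 of 7 tested members, all but Fosl2, and Sirt6mKO 3 the highest signal of its group for Fos, Jun, Junb and Jund. Leaving out Ctrl 2 therefore put 6 of 7 members past the adjusted p in place of 3, whereas without any other library Fos, Jun and Junb passed alone. Ctrl 2 also held hemoglobin and other erythroid RNA at a summed signal of 545 compared with 13 to 60 in the other libraries; the part of this in the AP-1 values was not tested.

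**Figure D2:**
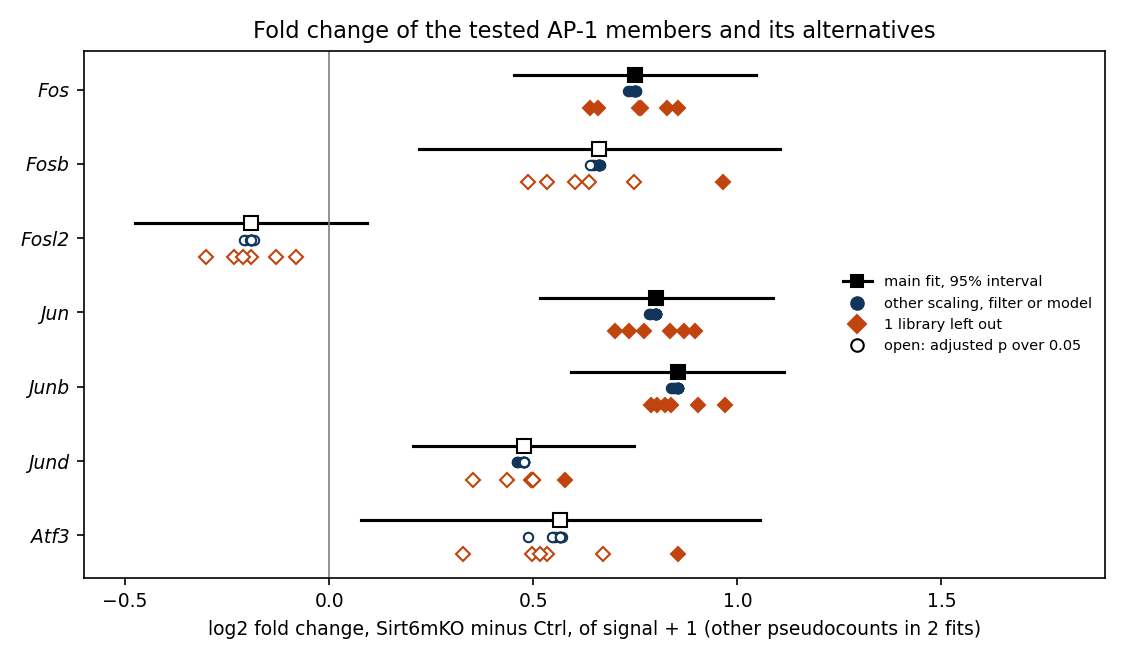
Log2 fold change (Sirt6mKO minus Ctrl, x axis) of the 7 tested AP-1 genes. Squares are the values of the report with 95% intervals, circles the fits with another scaling, filter, pseudocount, model or block, and diamonds the fits without 1 library; filled symbols have an adjusted p of at most 0.05. Fos, Jun and Junb are filled in every fit, the rightmost diamond of Fosb, Jund and Atf3 is the fit without Ctrl 2, and Fosl2 stays below 0 and open.

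To compare the members with each other, signal was divided by the length of the exons, which gives signal per kb. In Ctrl, Fos stood at 976 ± 145 and Jun at 813 ± 96.7 signal per kb (SD, n = 3), and Fos was above Jun in 6 of 6 libraries. Jund followed at 346 ± 53.2 and Junb at 277 ± 40.2. The order of this pair was not stable: Jund was above Junb in 3 of 3 Ctrl and 0 of 3 Sirt6mKO libraries, but in 1 of 3 Ctrl libraries once the length of the deposited Junb locus, 1809 bases, replaced the exon length of 2301 bases, which includes a transcript outside that locus. Fosb stood at 134 ± 52.8, below Junb in 6 of 6 libraries. Atf3 at 46.9 ± 18.0 and Fosl2 at 37.0 ± 2.83 did not differ beyond their spread in Ctrl, and Fosl1 came last at 0.492 ± 0.492. In Sirt6mKO, Fos stood at 1638 ± 197, Jun at 1419 ± 182, Junb at 498 ± 29.0, Jund at 478 ± 24.4, Fosb at 204 ± 21.1, Atf3 at 66.9 ± 8.25 and Fosl2 at 32.6 ± 5.01 signal per kb.

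The sum over the 8 members was 3961, 4247 and 4805 signal per kb in the Sirt6mKO libraries and 2341, 3058 and 2492 in the Ctrl libraries. The ratio of the group means was 1.65 for the whole family, 1.63 for the FOS genes and 1.67 for the JUN genes. The shares of the FOS and of the JUN genes overlapped between the groups. FOS genes made up 43.2% ± 0.818 of the summed level in Sirt6mKO and 43.5% ± 2.08 in Ctrl (SD, n = 3), and JUN genes 55.2% ± 0.631 and 54.7% ± 2.35. Fos alone contributed between 35.4% and 39.3%, with overlapping groups.

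**Figure D3:**
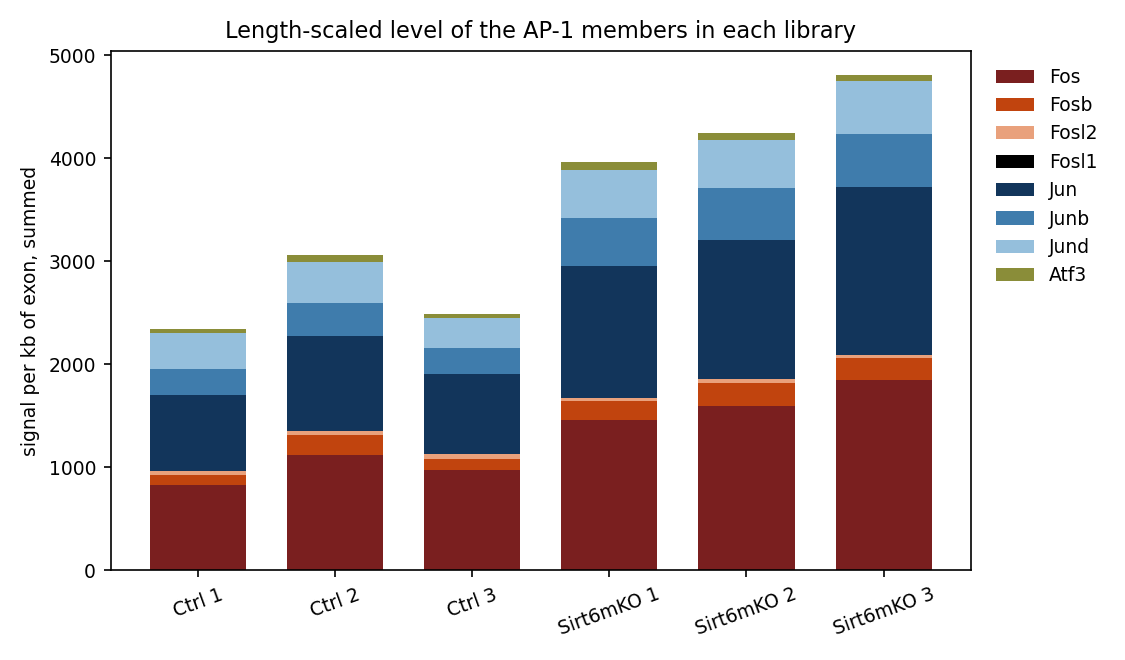
Summed signal per kb of exon of the AP-1 genes in each library (bars from 0, 1 bar per library, colours by gene). The Sirt6mKO bars reach 3961 to 4805 and the Ctrl bars 2341 to 3058, with Fos and Jun as the largest blocks of each bar; Fosl1 is too low to be seen.

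For 3 of the 7 tested members the share of the summed level did not overlap between the groups. In signal, the groups did not overlap for 1586 (higher in Sirt6mKO) and 1433 (lower) of 14227 tested genes. No count over all genes was made for shares. Fosl2 made up 0.699%, 0.888% and 0.673% in Sirt6mKO and 1.49%, 1.18% and 1.61% in Ctrl, lower in every Sirt6mKO library. Jun made up 32.4%, 31.7% and 33.8% in Sirt6mKO and 31.6%, 30.2% and 31.2% in Ctrl, and Junb 11.8%, 11.99% and 10.8% against 10.7%, 10.6% and 10.3%, both higher in every Sirt6mKO library. For Jun the gap was narrow, and the groups overlapped once the longest transcript replaced all exons. The share of Jund was 11.7%, 10.9% and 10.5% in Sirt6mKO and 15.1%, 12.9% and 11.6% in Ctrl, so that Sirt6mKO 1 and Ctrl 3 overlapped, as did the groups for Fos, Fosb and Atf3. Shares are parts of the same sum, so that a rise of some members lowers the share of others. The exact two-sided permutation p was 0.10 for the shares of Fosl2, Jun and Junb, and the shares are a description only. In ratios taken within each library, log2(Fosl2/Fos) was -3.68, -3.36 and -3.80 in Sirt6mKO and -2.53, -2.92 and -2.57 in Ctrl. Every Sirt6mKO library was lower, with a difference of means of -0.94. For log2(Jund/Jun) the values were -2.40, -2.48 and -2.62 against -1.999, -2.16 and -2.36, a difference of -0.32, again without overlap. An exact two-sided permutation test gave p = 0.10 for both ratios, the smallest value that 3 against 3 libraries allow, and 0.30 after adjustment over the 6 ratios computed. By contrast log2(Fos/Jun), log2(Fosb/Fos), log2(Junb/Jun) and log2(Atf3/Fos) overlapped between the groups, with differences of means of -0.05, -0.09, 0.05 and -0.18 and exact permutation p of 0.40 to 0.90.

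The genes that act on AP-1 were followed by lists of what feeds its promoters, its proteins and its RNA. Among 11 tested factors and cofactors acting at AP-1 promoters, Mef2a rose and none fell. Mef2a, a MADS-box factor that drives Jun in muscle and neurons, was listed at 399, 339 and 449 in Sirt6mKO and at 240, 205 and 269 in Ctrl (log2 fold change 0.73 ± 0.14, limma adjusted p = 0.011). The call was lost without Sirt6mKO 1 (adjusted p = 0.076) and without Sirt6mKO 3 (0.053). The most abundant of the list, the coactivator gene Crebbp, had a log2 fold change of 0.01 (adjusted p = 0.98). The median over the list was 0.03, with 9 log2 fold changes above 0 and 2 below, and 3 genes had an unadjusted limma p under 0.05.

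Of 23 tested kinases and scaffolds of the MAP kinase cascades, which phosphorylate JUN and the ternary complex factors, 0 passed the adjusted p in limma or in limma voom, and 2 had an unadjusted p under 0.05. Their median log2 fold change was 0.05, and the most abundant, Rps6ka3, a kinase of CREB, stood at 0.05 (adjusted p = 0.87). Of 11 tested genes of AP-1 protein and RNA turnover, among them ubiquitin ligases of JUN and proteins that bind the AU-rich elements of short-lived RNAs, 0 passed in limma or limma voom, with 1 at an unadjusted p under 0.05 and a median of 0.02. Zfp36l2, which destabilizes such RNAs and was the most abundant of them, stood at 0.02 (adjusted p = 0.97). Of 17 tested other basic leucine zipper genes of the ATF, CREB, MAF and related families, 0 passed in either model, 6 had an unadjusted p under 0.05 and the median was 0.06. The most abundant, Creb5, had a log2 fold change of -0.33 (adjusted p = 0.19). RNA levels say nothing of kinase activity or phosphorylation.

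Among other immediate early genes, 8 of 29 tested rose and 0 fell, 15 had an unadjusted p under 0.05, and the median log2 fold change was 0.40. The count was 4 without any one of the Sirt6mKO libraries, 6 without Ctrl 1 or Ctrl 3 and 9 without Ctrl 2, and the 4 genes given next passed in each of these fits. Egr1, a zinc finger factor under the control of serum response factor, was listed at 3897, 4646 and 3912 in Sirt6mKO and at 2788, 2446 and 2026 in Ctrl (log2 fold change 0.79 ± 0.14, limma adjusted p = 0.0062). Socs3, an inhibitor of cytokine signalling, rose by 0.85 (adjusted p = 0.0019), and Klf4, a Krüppel-like factor, by 0.87 (adjusted p = 0.0035). Arc, whose product is best known from synapses, was listed at 59, 74 and 62 in Sirt6mKO and at 30, 19 and 22 in Ctrl and rose by 1.44 (adjusted p = 0.0041). Of these 4 genes, Ctrl 2 was the highest Ctrl library for Socs3 (262, 295 and 229 in Ctrl 1 to 3), as for Fosb and Atf3, but not for Egr1, Klf4 or Arc.

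**Figure D4:**
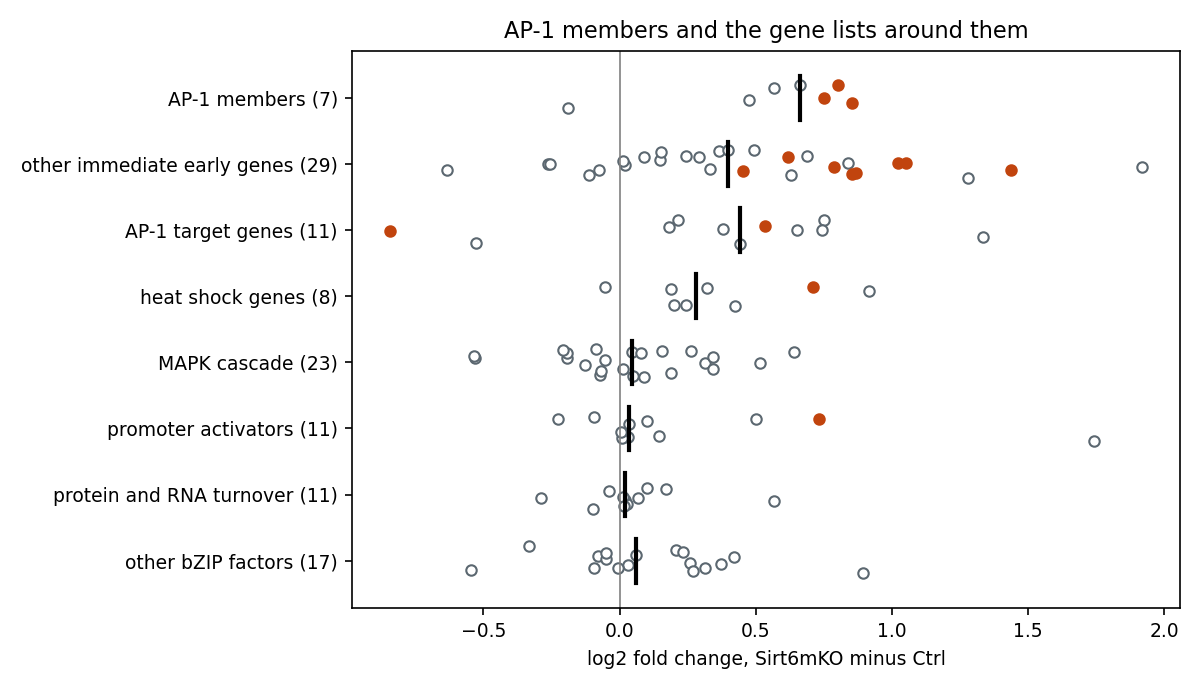
Log2 fold change (Sirt6mKO minus Ctrl, x axis) of the tested genes of each list (rows, number tested in brackets). Filled orange points have an adjusted p of at most 0.05, open points do not, and the black bar is the median of the list; points are spread vertically for display. The medians of the AP-1 members (0.66), the AP-1 target genes (0.44) and the other immediate early genes (0.40) lie to the right of those of the MAP kinase, promoter, turnover and other basic leucine zipper lists, which lie between 0.02 and 0.06.

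Genes commonly given as AP-1 targets passed the adjusted p in both directions, while most of the list lay above 0. Of 11 tested, Cd44, a hyaluronan receptor, rose by 0.53 on the log2 scale (limma adjusted p = 0.034) and Ccnd1, which encodes cyclin D1, fell by 0.84 (adjusted p = 0.033). Ccnd1 was listed at 383, 351 and 687 in Sirt6mKO and at 830, 860 and 749 in Ctrl, so that Sirt6mKO 3 was close to the Ctrl range. Cd44 passed in 1 of 6 fits without 1 library, and so did Ccnd1. The median of the list was 0.44, with 9 of the 11 log2 fold changes above 0 and 2 below, and 6 genes had an unadjusted limma p under 0.05. Vim, the most abundant gene of the list and a cytoskeletal one, stood at 0.21 (adjusted p = 0.42). A further 9 genes of the list, among them matrix proteases and cytokines, were below the limit for testing. Utrn, with the AP-1 site the study deals with, was listed at 2381, 2404 and 2310 in Sirt6mKO and at 2375, 2506 and 2185 in Ctrl. Its log2 fold change was 0.01 ± 0.11 (SE; adjusted p = 0.98), and its sign changed with the scaling. The study itself saw no rise of Utrn in freshly isolated MuSCs by RT-qPCR and describes the rise in muscle fibers.

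Heat shock genes, which respond to the same handling as immediate early genes, were measured beside them. Of 8 tested, Hsph1, a co-chaperone of HSP70, rose by 0.71 (limma adjusted p = 0.015), 4 had an unadjusted p under 0.05 and the median was 0.28. Hsph1 lost its call without Sirt6mKO 1 (adjusted p = 0.10) and without Sirt6mKO 2 (0.093). Hspa1b, the most abundant and an inducible HSP70 gene, stood at 0.42 (adjusted p = 0.22), with 6599, 6023 and 4622 in Sirt6mKO and 4768, 4868 and 3282 in Ctrl. Summed over the 8 genes, the signal was 28580, 25899 and 21126 in Sirt6mKO libraries 1 to 3 and 20628, 22595 and 17718 in Ctrl libraries 1 to 3. The part of cell handling in the AP-1 difference was not tested.

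Markers of MuSCs were present in all libraries, and Pax7, their defining factor, was listed at 1841, 2307 and 1810 in Sirt6mKO and at 4066, 3449 and 3150 in Ctrl (log2 fold change -0.84, limma adjusted p = 0.0041). Summed over 14 markers of quiescent MuSCs, the signal was 16909 to 19065 in Sirt6mKO and 17140 to 20135 in Ctrl, with 1 marker higher and 2 lower. Over 7 commitment genes the sums were 368 to 522 and 484 to 920, with 1 of 5 tested lower. Some genes used as markers of other cells also differed. The 14 myofiber markers summed to 1608 to 3223 in Sirt6mKO and 1132 to 1242 in Ctrl, with 4 of 13 tested higher. The 10 fibroblast markers summed to 12818 to 14726 and 8869 to 13390, ranges that overlapped, with 3 of 8 tested higher. The study reports muscle contraction and extracellular matrix genes among those raised in Sirt6-deficient MuSCs. Whether this RNA came from MuSCs or from other cells was not tested. Tenocyte markers reached 60 to 1085 in Sirt6mKO and 50 to 71 in Ctrl with 0 of 6 past the adjusted p and 4 at an unadjusted p under 0.05. Sums for endothelial (373 to 451 and 467 to 574), mural (587 to 677 and 582 to 708), Schwann (52 to 109 and 84 to 121) and immune markers (44 to 89 and 44 to 81) held no gene past the adjusted p, with 1, 1, 0 and 0 at an unadjusted p under 0.05. No marker with an entry was at 0 in every library. The myofiber sum was highest in Sirt6mKO 1 and 2. The fibroblast sum was 12818, 13450 and 14726 in Sirt6mKO libraries 1 to 3, highest in Sirt6mKO 3 as were Fos, Jun, Junb and Jund. In Ctrl libraries 1 to 3 it was 13390, 11003 and 8869, whereas these AP-1 genes were highest in Ctrl 2. The part of other cells in the AP-1 difference was not tested.

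The genes whose pattern over the 6 libraries was most like that of the family were found by Pearson's r between log2(signal + 1) and the mean of the standardized values of the 7 tested members. Among 7387 other genes averaging 50 signal units or more they were Agpat4 (r = 0.995), Actr10 (0.987), Egr2 (0.985), Dnajc15 (0.984) and Trim12c (0.981). As the libraries fall into 2 groups, r is a description of likeness and 134 of these genes had an r above 0.9. Egr2, the only immediate early gene among the 5, was listed at 100, 116 and 137 in Sirt6mKO and at 41, 90 and 47 in Ctrl, with Ctrl 2 close to the Sirt6mKO range (log2 fold change 1.05, limma adjusted p = 0.035). Its call was lost in 7 of 17 alternative fits, namely with no filter (adjusted p = 0.067), in limma voom (0.053) and without any one library other than Ctrl 2 (0.10 to 0.14). The other four differed less between the groups, with log2 fold changes of 0.46 for Agpat4, 0.31 for Actr10, 0.20 for Dnajc15 and 0.69 for Trim12c, none past the adjusted p.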

How the data were processed

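MuSCs were sorted by FACS, and total RNA (1 to 5 ng) was depleted of ribosomal RNA, made into libraries and sequenced as single reads of 75 bases. According to the submitters' processing notes and the study's methods, the reads were trimmed (Trimmomatic 0.39), aligned to mm10 (STAR 2.7.10a), counted per gene with featureCounts 2.0.2, with reads on more than 1 gene left out, and normalised with DESeq2 1.30.1; the notes and the published methods name different versions and library kits. The deposited signal values are, as the steps between low values show, these counts divided by a size factor per library and rounded by the authors.

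From these values log2(signal + 1) was tested with limma 3.58.1 (trend, R 4.3.3) in genes with a mean of at least 5, over all 6 libraries, with Benjamini-Hochberg adjustment. The limits were an adjusted p of 0.05, and separately a 2-fold change in addition. Exact permutation tests used scipy. Reads per library were recovered from the steps of the low values. The fit was tested on simulated data. Exon lengths came from GENCODE vM21, which held 99.7% of the identifiers, and promoters from RefSeq. Libraries of a group differed beyond sampling noise (chi-square per degree of freedom of 3.00 to 3.93), so each was kept as 1 replicate. The members and gene lists were chosen with earlier results of these data known. Named are the 8 members, the most abundant gene of each list with up to 4 of the lowest adjusted p past 0.05, the 5 most similar genes, and Sirt6, Utrn and Pax7; overlapping genes were added after seeing the annotation. Some listed genes (Egr4, Mmp10, Mmp12, Nrl and a few markers) were not analysed here. Alternatives changed the scaling, filter, pseudocount, model, block, threshold or exon length, or left out 1 library.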

Additional observations from a re-analysis of the deposited data

How the results depend on the processing

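Fos, Jun and Junb kept their direction and an adjusted p of at most 0.05 in 17 of 17 alternative fits each, and 0 members passed the 2-fold limit in any of them. The number of members past the adjusted p ran from 3 to 6 when 1 library was left out, with 6 only without Ctrl 2. Genes of the 7 surrounding lists past the adjusted p numbered 12, but 7 with no filter on low values and 4 at an adjusted p of at most 0.01. The number rose to 14 with upper quartile scaling or a pseudocount of 5, and to 18 with the replicate number as a block. With this block, 1 gene of the MAP kinase list and 1 of the turnover list passed. When 1 library was left out the number ran from 4 to 13, with 4 without Sirt6mKO 1 and 5 without Sirt6mKO 2. The cause was not tested. Over all genes 376 rose and 267 fell, compared with 130 and 103 at an adjusted p of at most 0.01, 220 and 164 at a mean of at least 50, and 127 to 443 and 106 to 240 when 1 library was left out. Same-numbered libraries correlated at 0.0235, 0.0663 and 0.188 in their deviations from the group means, and 3 of 6 libraries correlated best with their own number, so the numbers were not taken as pairs; with the number as a block 4 members passed, Fosb in addition, and 481 genes rose and 333 fell. With the longest transcript in place of all exons, FOS genes took 45.9% of the summed level in Sirt6mKO and 46.5% in Ctrl, and JUN genes 52.6% and 51.8%; with the deposited length of Junb, an alternative chosen after seeing the data, the Sirt6mKO shares were 41.9% and 56.6%. Log2 fold changes near 0 changed sign: Crebbp to -0.0061 and Utrn to -0.0063 by upper quartile scaling, Crebbp to -0.0095, Utrn to -0.0096 and Zfp36l2 to -7.7e-05 at equal library totals, and, when 1 library was left out, Rps6ka3 to between -0.024 and 0.125, Sirt6 to between -0.205 and 0.087, Crebbp to between -0.055 and 0.068, Zfp36l2 to between -0.142 and 0.180 and Utrn to between -0.045 and 0.054. Depth limits Fosl1, at 0 to 7 reads, and 3 libraries per group cannot reach an exact p under 0.10.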
